A study of Mus musculus with 15 samples.

Results

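Primitive streak cells of early gastrulation were taken as cells that held RNA of 3 streak transcription factors at once and little RNA of *Mesp1*. The cells were selected on measured UMI counts: a cell was counted when it held at least 1 unique molecular identifier (UMI, a tag that marks each captured RNA molecule) of each of *T*, *Eomes* and *Mixl1* and fewer than 3 UMIs of *Mesp1*. Of 23505 cells kept from 10 embryos, 1638 met this rule, 893 from 8 control and 745 from 2 *Mesp1* KO embryos. Over all stages the series holds 93701 kept cells from 15 embryos. These cells are called streak cells here, and cells with the 3 factors and any amount of *Mesp1* are called triple-positive cells. Cells with at least 1 *Pou5f1* UMI and none of *T*, *Eomes* or *Mixl1* served as the comparison population, and there were 4909 of these *Pou5f1*-only cells. They also held RNA of cell types other than epiblast, as given below. Because the rule itself uses *T*, *Eomes*, *Mixl1* and *Mesp1*, and *Pou5f1* for the comparison cells, the levels of these genes in the classes they define are descriptions and were not tested.

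The limit on *Mesp1* acted on control embryos and not on the KO embryos. Of 2330 triple-positive control cells, 629 had no *Mesp1* UMI, 171 had 1, 93 had 2 and 1437 had at least 3, so 893 were kept. All 745 triple-positive KO cells were kept, since 744 of them had no *Mesp1* UMI and 1 had a single UMI. The share of triple-positive cells that was kept lay between 21.2% and 79.5% in the controls, lowest in the E6.5 control and highest in the early E7.5 control. Just outside the limit, 64 control cells and 0 KO cells held 3 *Mesp1* UMIs. At the other edges, 622 cells lacked only *T*, 548 only *Eomes* and 1672 only *Mixl1*. A comparison of KO with control streak cells therefore sets all KO triple-positive cells against a selected part of the control ones, so values obtained without the limit are given beside the genotype results below.

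Each library came from 1 whole mouse embryo on a C57BL/6J background, processed with the 10x Genomics 5′ chemistry. Embryos carried the *Smarcd3*-F6::eGFP enhancer transgene and the Cre-dependent *Rosa26R*-Ai14 reporter, except that the early E7.5 control lacked Ai14. Controls had at least 1 wild-type *Mesp1* allele (*Mesp1* Cre/+ or +/+), and KO embryos were *Mesp1* Cre/Cre, in which the Cre gene replaces *Mesp1* coding sequence on both alleles. The 5 early controls were 3 E6.0 embryos, 1 late E6.0 and 1 E6.5 embryo, and the early KO embryo was E6.5. The 3 middle controls were 1 embryo each of late E6.5, of E7.0 and of early E7.5, and the middle KO embryo was E7.0. With 1 KO embryo at each stage, the spread of the KO group within a stage is not known.

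The primitive streak forms at the posterior end of the epiblast, where cells receive Nodal, Wnt and BMP signals, lose epithelial contacts and move inward to form mesoderm and endoderm. *T* (Brachyury) and *Eomes* are T-box transcription factors that start this programme, *Mixl1* is a homeobox factor of mesendoderm, and *Fgf8* is a ligand needed for cells to leave the streak. *Mesp1*, a basic helix-loop-helix factor, is switched on downstream of *Eomes* and *T* in the first mesoderm to leave, which includes the heart precursors. Cells at the anterior end of the streak, marked by *Foxa2*, *Gsc* and *Lhx1*, give rise to definitive endoderm, node and axial mesoderm.

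The 3 factors that define the cells lie apart in the genome. On mm10, *T* is at chr17:8434423-8442496 on the plus strand, *Eomes* at chr9:118478212-118486132 on the plus strand, and *Mixl1* at chr1:180693043-180697034 on the minus strand. *Mesp1* is at chr7:79792241-79793788 and *Fgf8* at chr19:45736798-45742915, both on the minus strand. *Sp5*, a zinc finger gene and known direct target of Wnt signalling, is at chr2:70474923-70477729 on the plus strand. Upstream sequence is printed for *T* and *Eomes*, which define the cells, and for *Sp5*, which had the largest median difference from *Pou5f1*-only cells among the genes at least 2-fold higher in every embryo that the rule did not use. The sequences are the 250 bases before each transcription start in the RefSeq annotation of GRCm38.p6 (the mm10 assembly), 5′ to 3′ on the strand of the gene. Capitals mark the TCF/LEF core CTTTGA on either strand (TCAAAG on the other), the letters bound by the factors that carry the Wnt signal to DNA.
T, chr17:8434173-8434422, plus strand: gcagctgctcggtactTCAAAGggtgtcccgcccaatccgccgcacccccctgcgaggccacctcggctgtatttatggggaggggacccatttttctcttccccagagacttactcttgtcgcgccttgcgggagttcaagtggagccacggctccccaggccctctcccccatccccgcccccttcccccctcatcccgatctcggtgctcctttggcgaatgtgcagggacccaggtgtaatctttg
Eomes, chr9:118477939-118478188, plus strand: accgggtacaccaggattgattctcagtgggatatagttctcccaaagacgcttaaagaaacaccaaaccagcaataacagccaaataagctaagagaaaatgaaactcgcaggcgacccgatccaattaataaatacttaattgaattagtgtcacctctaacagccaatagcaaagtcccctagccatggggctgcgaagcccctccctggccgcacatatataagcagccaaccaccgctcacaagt
Sp5, chr2:70474673-70474922, plus strand: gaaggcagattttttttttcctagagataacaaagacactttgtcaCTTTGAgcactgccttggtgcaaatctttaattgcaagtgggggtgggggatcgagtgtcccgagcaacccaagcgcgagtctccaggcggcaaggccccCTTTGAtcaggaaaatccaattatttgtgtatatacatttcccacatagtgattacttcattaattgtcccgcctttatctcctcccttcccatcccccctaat
The *T* window holds 1 such core, the *Sp5* window 2 and the *Eomes* window 0. Of 27025 genes with a promoter entry, 4280 (15.8%) hold the core in this window. A match to 6 letters is a description and not evidence of binding.

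Summed over streak cells, *T* was measured at 168 to 1353 CPM (UMIs of the gene out of 1000000 UMIs of the same cells) in the 8 controls with a median of 236, and at 272 and 217 CPM in the E6.5 and E7.0 KO embryos. *Eomes* was at 54.4 to 364 CPM in controls with a median of 243, and at 276 and 279 CPM in the KO embryos. *Mixl1* was at 77.8 to 486 CPM with a median of 187, and at 341 and 309 CPM. The KO values lay within the control range for all 3 genes, with or without the *Mesp1* limit. *Fgf8*, which the rule did not use, was at 88.8 to 659 CPM with a median of 215 in control streak cells and at 331 and 299 CPM in KO streak cells, against 10.2 to 58.4 CPM in *Pou5f1*-only cells of the controls. *Mesp1* was at 2.20 to 21.6 CPM in the kept control cells and at 0 and 0.102 CPM in the KO embryos, which matched their labels.

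The libraries held between 13058356 and 172058203 UMIs, and the streak cells of an embryo between 910656 and 12929924. The median streak cell had 23358.5 to 41595 UMIs, and the median *Pou5f1*-only cell 15068 to 31313, so streak cells were the deeper class. From 0 to 42 cell barcodes were shared by any pair of libraries. Markers of other cell types were present. The definitive endoderm list, which overlaps with anterior streak in what it marks, summed to 906 to 2554 CPM in streak cells and the parietal endoderm list to 400.1 to 1250 CPM. The 12 visceral endoderm markers summed to 12.3 to 2151 CPM in control streak cells, highest in the third E6.0 control, which holds 25 streak cells, and to 232 and 178 CPM in KO streak cells. The defining marker *Ttr* was at 0.882 to 207 CPM there. The 14 endothelial and blood genes summed to 41.4 to 248 CPM in streak cells, with *Etv2* at 12.1 to 150.1 CPM and *Kdr* at 5.05 to 66.1 CPM. Of the 4 measured against *Pou5f1*-only cells, 3 had a positive median log2 ratio (list median 2.24), while the globins *Hba-x* and *Hba-a1* and the endothelial gene *Emcn* were at 0 in streak cells and *Pecam1* at or near 0. The *Pou5f1*-only cells were mixed as well. Over all embryos their visceral endoderm markers summed to 270 to 1188 CPM and their parietal endoderm markers to 283 to 1441 CPM. In the early E7.5 control their pluripotency list summed to 2313 CPM, against 3992 CPM in streak cells. In every other embryo that list was higher in *Pou5f1*-only cells. In 3 control libraries (the third E6.0, the late E6.0 and the late E6.5 control) the ribosomal pseudogene *Rps2-ps13* was at 2186 to 2793 CPM, against 1.76 to 6.88 CPM in the other 7 libraries. The first 2 of these are also the only controls that share an experiment, as the library names give it, with the KO embryos. Both were younger than either KO embryo. The E6.5 and later controls were all of another experiment, so for the middle KO embryo experiment and genotype cannot be told apart.

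**Figure D1:**
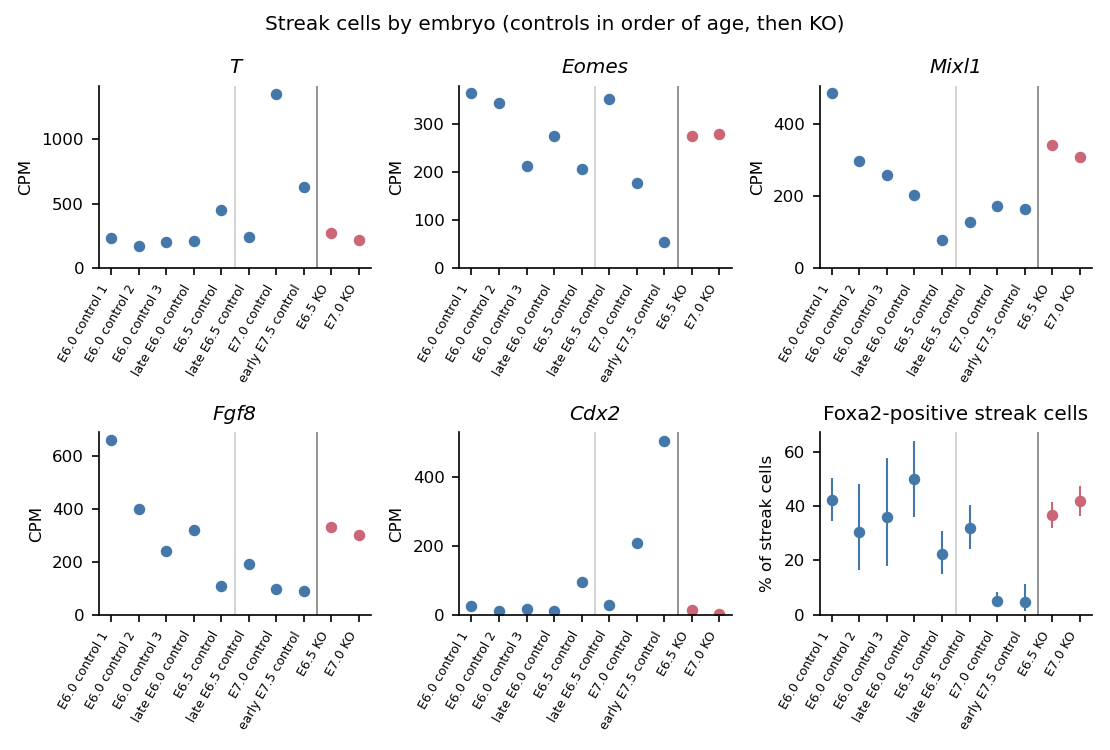
Levels in streak cells of each of the 10 embryos, in CPM of the summed UMIs, for T, Eomes, Mixl1, Fgf8 and Cdx2, and the percentage of streak cells with a Foxa2 UMI. Each point is 1 embryo, and KO embryos are coloured apart from controls. T, Eomes, Mixl1 and Fgf8 of the KO embryos lie within the control range, Cdx2 reaches 504 CPM in the early E7.5 control, and the Foxa2-positive share is near 5% in the E7.0 and early E7.5 controls.

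Against *Pou5f1*-only cells of the same embryo, streak cells had more RNA of ligands such as *Fgf8*, *Wnt8a* and *Nodal*, of the antagonists *Fst* and *Frzb* and of *Sp5*, and less of *Slc7a3*, *Pou3f1* and *Lrp2*. Of 7592 genes with at least 10 CPM on average in the higher class, 36 were at least 2-fold higher in streak cells in every one of the 10 embryos (0.474%), of which 33 were not genes of the rule, and 8 were at least 2-fold lower in every embryo (0.105%). The same cells that define the classes supply these values, so they are given without a test. Without the early E7.5 control, the oldest embryo, 48 genes met the criterion on the higher side and 28 on the lower. Ratios below are medians of within-embryo log2 ratios after adding 1 CPM.

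Among the ligands, *Fgf8* was higher by 3.71 (2.48 to 5.07), *Wnt8a* by 3.27 (2.28 to 4.29), *Fgf17* by 2.58 (1.54 to 4.68), *Wnt5b* by 2.44 (1.39 to 3.30) and *Nodal*, the ligand that induces the streak, by 2.17 (1.49 to 2.66). *Apln*, the ligand of the apelin receptor, was higher by 3.38 (2.71 to 4.12). *Wnt3*, the first Wnt ligand of the posterior epiblast, was higher in all 10 embryos with a median of 2.71, but by only 0.69 in the lowest one. *Tdgf1*, the Nodal co-receptor Cripto, was at 5.68 to 1330.2 CPM in control streak cells with a median of 686, and at 0.395 to 193 CPM in *Pou5f1*-only cells of the same embryos. It was higher by 3.45 (2.07 to 4.49).

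The secreted antagonists *Fst* and *Frzb* were also higher in streak cells. *Fst*, an inhibitor of activins, was at 48.1 to 839 CPM in control streak cells and at 1.97 to 40.0 CPM in *Pou5f1*-only cells, a ratio of 3.72 (2.25 to 4.76). *Frzb*, a Wnt inhibitor, was at 47.6 to 233 CPM against 0 to 17.7 CPM, a ratio of 4.20 (2.76 to 5.89). Among the transcription factors, *Sp5* was at 147 to 355 CPM in control and 108 and 126 CPM in KO streak cells, against 0 to 24.8 CPM in all *Pou5f1*-only sums, a ratio of 4.68 (3.79 to 7.34). *Evx1*, a homeobox gene of the posterior streak, was higher by 2.95 (1.82 to 4.07), and *Axin2*, a feedback inhibitor and reporter of Wnt signalling, by 1.84 (1.35 to 3.24). *Lhx1* reached a median ratio of 4.38, yet its lowest was 0.48, since it was at only 11.8 CPM in streak cells of the E7.0 control. Of the 33 genes that the rule did not use, 21 had a promoter entry, and 5 of these (23.8%, against 15.8% of all genes with an entry) held the TCF/LEF core shown above, *Sp5*, *Frzb*, *Wnt5b*, *Epha2* and *Rgs12*.

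On the lower side, *Slc7a3*, a cationic amino acid transporter, was at 11.4 to 64.3 CPM in control streak cells and at 45.6 to 495 CPM in *Pou5f1*-only cells, lower by a log2 ratio of -3.00 (-3.91 to -1.91). *Pou3f1*, an epiblast and neural POU factor, had a ratio of -2.40 (-3.55 to -1.04), and *Lrp2*, an endocytic receptor, one of -2.44. *Utf1* and *Sox2*, both tied to the pluripotent state, had median ratios of -3.09 and -2.10 but were not 2-fold lower in every embryo, because in the early E7.5 control both classes held similar amounts. *Pou5f1* itself was at 998 to 1904 CPM in streak cells, and *Nanog* had a median ratio of 1.35, higher in 9 of 10 embryos. Of 12 measured epithelial genes 0 met the criterion in either direction, with 4 medians above and 8 below 0 (list median -0.15). *Epcam* and *Cdh1*, both adhesion proteins of epithelia, had median ratios of -0.84 and -0.23.

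By list, 8 of the 16 measured primitive streak genes other than the 3 that define the cells were at least 2-fold higher in every embryo (median log2 ratio 2.44, against 0.02 over all genes), where 0.474% of all genes were higher and 0.105% lower by this criterion. The same held for 4 of 17 Wnt, 3 of 14 FGF, 2 of 11 Nodal and TGF-beta and 1 of 14 BMP pathway genes. Of 19 posterior streak and nascent mesoderm genes 1 met the criterion, of 12 anterior streak genes and 15 mesenchymal genes 0, and of 19 pluripotency genes 2 were lower. All 8 measured visceral endoderm markers had lower medians in streak cells (list median -1.49).

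**Figure D2:**
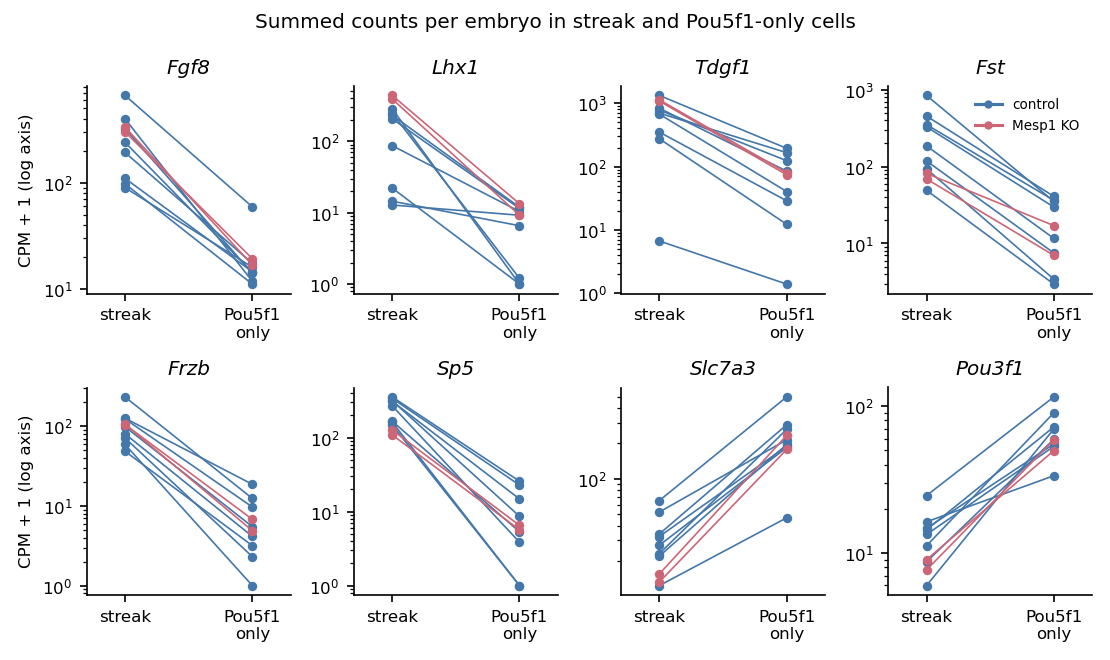
Paired levels of 8 genes in Pou5f1-only cells and streak cells of each of the 10 embryos, in CPM + 1 on a log axis, with lines joining the classes of 1 embryo. Fgf8, Tdgf1, Fst, Frzb and Sp5 are higher and Slc7a3 and Pou3f1 lower in streak cells of every embryo, while Lhx1 differs little in the E7.0 and early E7.5 controls.

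Streak cells were not uniform over the embryos. The share with at least 1 UMI of *Foxa2*, the forkhead factor of anterior streak and endoderm, was 42.2%, 30.6%, 36%, 50% and 22.2% in the early controls (3 E6.0, late E6.0, E6.5) and 31.9%, 5.0% and 4.49% in the late E6.5, the E7.0 and the early E7.5 control, the middle embryos. It was 36.7% and 41.7% in the E6.5 and E7.0 KO embryos. Among *Pou5f1*-only cells of the controls the share was between 2.63% and 5.94%, so the values of the E7.0 and early E7.5 controls were no higher than in cells outside the streak, and in the KO embryos it was 11.1% and 11.3%. After thinning each cell to 10000 UMIs the streak share was 2.59% in the E7.0 control and 26.3% in the E7.0 KO embryo. Without the *Mesp1* limit the picture changed. The share among all triple-positive cells was 21.8%, 12.8%, 16.1%, 21.2% and 5.80% in the early and 11.3%, 2.31% and 4.46% in the middle controls, all below the 36.7% and 41.7% of the KO embryos. After thinning, the control shares without the limit reached 16.7%, against 22.5% and 26.3% in the KO embryos. The anterior streak list moved in the same way. It summed to 1175 and 1302 CPM in KO streak cells and to 164 to 1992 CPM in control streak cells, but to no more than 1114 CPM in control cells without the limit. In *Pou5f1*-only cells the list summed to 918 and 792 CPM in the E6.5 and E7.0 KO embryos and to 167 to 793 CPM in the controls. These shares and sums were not tested.

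The posterior genes *Cdx2*, *Hoxb1* and *Cdx1*, chosen after their values were seen, were highest in the same controls. In the posterior streak and nascent mesoderm list members differed in both directions between stages of the controls, with 7 of 20 members higher and 5 lower in middle embryos at an unadjusted p under 0.05 (7.42% and 3.88% of all genes were) and a median log2 fold change of 0.08. *Cdx2*, a homeobox gene of the posterior embryo, was at 25.6, 9.70, 16.5, 8.85 and 94.8 CPM in streak cells of the early controls and at 26.5, 208 and 504 CPM in the middle controls, against 13.6 and 1.94 CPM in the KO embryos. *Hoxb1* was at 0 to 15.2 CPM in the early controls, at 4.78, 123 and 339 CPM in the middle controls, and at 2.55 and 2.66 CPM in the KO embryos. *Cdx1* was at 91.2 and 1005 CPM in the E7.0 and early E7.5 controls and at no more than 14.6 CPM elsewhere. The early E7.5 control held 89 streak cells. Of these, 74 remained with called doublets left out, and 16 held at least 2 UMIs of each factor. The E7.0 KO embryo lay below the E7.0 control for all 3 genes. Its *Cdx2* level was also below all early embryos, while its *Hoxb1* and *Cdx1* levels were within their range. Without the *Mesp1* limit the controls held 8.12 to 503 CPM of *Cdx2*, 4.51 to 347 CPM of *Hoxb1* and 3.16 to 905 CPM of *Cdx1*, so that both KO embryos were then below all controls for *Hoxb1*.

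Middle and early control streak cells were compared across 10435 genes by edgeR's quasi-likelihood test. No gene passed an adjusted p of 0.05 (0.0%), 1179 had an unadjusted p under 0.05, and DESeq2 called 55. Without the E6.5 control, the oldest early embryo, 498 genes passed, and without the E7.0 control 3. The E6.5 control is also the only early control of the experiment that holds all 3 middle controls. Without it, stage and experiment cannot be told apart. *Tbx3*, a T-box repressor, had one of the smallest p-values, at 7.69 to 20.3 CPM in the 5 early controls and 3.19, 3.45 and 3.20 CPM in the 3 middle ones (log2 fold change -2.001, edgeR adjusted p = 0.208). *Tmem119* had a log2 fold change of -3.31 (edgeR adjusted p = 0.255). The smallest p-values on the higher side were those of the predicted genes *Gm10116* and *Gm11878* and of *Wapal*, *Ncor1* and *Sec61g*. The Wnt list had 10 of 21 members with an unadjusted p under 0.05 in the higher direction and 0 in the lower, where 7.42% of all genes were higher and 3.88% lower at that p. The sum of this list was 1134 to 1585 CPM in the 4 controls of the same experiment, the E6.5 control and all 3 middle controls. It was 779 to 993 CPM in the other 6 embryos, the E6.0 and late E6.0 controls and both KO embryos. In *Pou5f1*-only cells it was 595 to 737 CPM against 364 to 555 CPM. *Rac1* was at 398 to 424 CPM in these 4 controls and at 45.9 to 92.6 CPM in the other 6 embryos. Its log2 difference between stages was 1.54. These 4 controls are also all the controls of E6.5 or later. Experiment therefore cannot be told apart here from age among controls, or from genotype at E6.5 and later. The cause of either split was not tested.

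Within embryos, streak cells with a *Foxa2* UMI differed from those without one in genes that mark the anterior and the posterior streak. The cells were dissociated, so their position in the streak was not measured. There were 490 *Foxa2*-positive cells, 200 in controls and 290 in KO embryos, and 8 embryos had at least 10 cells of each class. Of 7664 genes, 16 were at least 2-fold higher in *Foxa2*-positive cells in every one of these embryos (0.209%), *Foxa2* included, and 10 were at least 2-fold lower (0.13%). These are descriptions of cells split on the same counts. Node and axial genes were among those on the higher side. Of 8 measured genes of the node and notochord list, 3 were at least 2-fold higher in every embryo (0.209% of all genes were). Medians were positive for 6 of the 8 and negative for 2 (list median 2.25). *Foxj1*, the factor of motile cilia, had a median log2 ratio of 3.86 (2.64 to 5.59), *Noto*, the node homeobox gene, 3.47 (1.74 to 6.60), *Chrd*, a BMP inhibitor, 2.92 (1.74 to 4.19), and the R-spondin receptor gene *Lgr5* 2.94 (2.52 to 3.92). *Foxa1* and *Foxa3*, relatives of *Foxa2*, were higher by 2.41 and 2.24.

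The 10 genes on the lower side were *Fgf3*, *Kdr*, *Phlda2*, *Etv2*, *Tbx20*, *Tbx3*, *Nrp2*, *Bmp4*, *Myl7* and *Ccnd2*. *Fgf3*, a ligand of the posterior streak, had a ratio of -3.96 (-5.98 to -2.59), *Kdr*, the VEGF receptor of blood and vessel precursors, -3.73 (-6.74 to -2.56), and the imprinted gene *Phlda2* -3.69 (-5.87 to -1.83). *Etv2*, the factor that starts the blood and vessel lineage, had a ratio of -2.72 (-5.25 to -1.51), *Tbx3* one of -2.61 and *Bmp4*, the ligand of posterior and extra-embryonic mesoderm, one of -2.04 (-4.25 to -1.50). *T* and *Eomes* differed little between the classes, with median ratios of -0.05 and -0.23. All 12 measured anterior streak genes other than *Foxa2* had positive medians (list median 2.45), and 3 were at least 2-fold higher in every embryo (0.209% of all genes were), while 4 of 16 posterior streak genes were at least 2-fold lower (0.13% were) in every embryo (list median -1.43). The 7 visceral endoderm markers were also higher in *Foxa2*-positive cells (list median 1.82), with *Ttr* higher in 6 of 8 embryos and *Spink3* by a median of 4.95. *Foxa2* is expressed in visceral endoderm as well, and the part of such cells in this split was not tested.

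**Figure D3:**
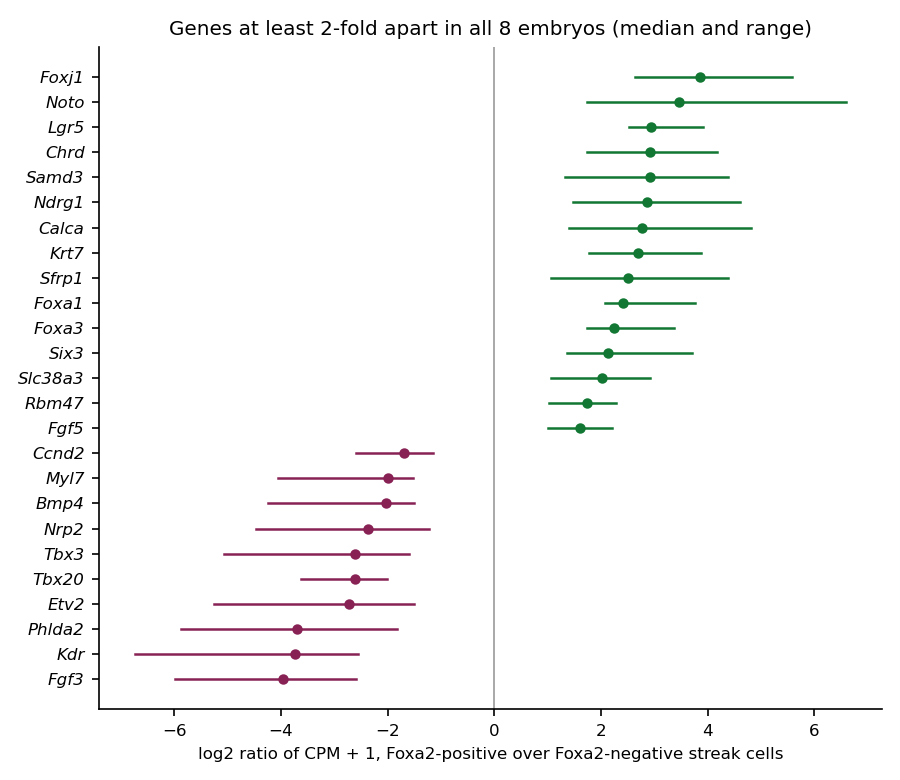
Within-embryo log2 ratios of Foxa2-positive to Foxa2-negative streak cells in 8 embryos for genes at least 2-fold apart in every embryo. Foxj1, Noto, Lgr5 and Chrd lie above 1 and Fgf3, Kdr, Phlda2 and Etv2 below -1 in all 8.

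The cells that the *Mesp1* limit removed were described against those it kept, within the 8 controls. Of 7602 genes, 26 were at least 2-fold higher in the *Mesp1*-high cells in every embryo (0.342%) and 21 at least 2-fold lower (0.276%). On the higher side, *Snai1*, the repressor that drives epithelial-to-mesenchymal transition, was at 189 to 467 CPM with a median of 265 in *Mesp1*-high cells and at 33.8 to 109 CPM with a median of 55.2 in kept cells. *Fn1*, fibronectin, was at 204 to 684 CPM against 59.2 to 167 CPM. *Pdgfra*, a receptor of early mesoderm, was at 25.7 to 44.1 CPM against 1.76 to 11.4 CPM, and *Fgf3* at 74.2 to 145 CPM against 9.25 to 46.2 CPM. These 4 genes were chosen after their values were seen, from those already at least 2-fold higher in every embryo. On the lower side, *Cldn7*, a claudin, was at 9.94 to 27.9 CPM in *Mesp1*-high and 63.8 to 163 CPM in kept cells, and *Cdh1*, E-cadherin, at 6.88 to 30.4 CPM against 34.2 to 76.3 CPM. Of 21 posterior streak and nascent mesoderm genes 4 were at least 2-fold higher (list median 2.09), of 17 mesenchymal genes 3 (list median 0.66), and of 11 epithelial genes 4 were lower (list median -1.20).

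KO streak cells were set beside both control classes for these genes. The genes were picked because the limit sets the control classes apart, and the KO cells are not split, so KO sums between the classes follow from the construction. All triple-positive control cells include the *Mesp1*-high cells by which these genes were picked, so shares over all genes are no matched background. The comparison with like cells is that with all triple-positive control cells. There, of the 25 genes other than *Mesp1* that were higher in *Mesp1*-high cells, both KO embryos lay within the control range for 15 (76.3% of all 7601 genes did), below it for 7 (4.53% did), which were *Pdgfra*, *Wnt5a*, *Rasgrp3*, *Pcdh19*, *Lfng*, *Fgf3* and *Crabp1*, and above it for *Pcdh7* alone (4.41% did). Of the 21 genes that were lower in *Mesp1*-high cells, both KO embryos lay within the range for 17, below it for 0 and above it for 2, *Crb3* and *Eras*.

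Against the split control classes, both KO embryos lay above all 8 kept control sums for 13 of the 25 genes (4.01% of all 7601 genes did) and below for 0. Against the *Mesp1*-high sums, both KO embryos lay within the range for 11 (76.2% of all genes did) and below it for 11 (5.26% did). One set of genes, *Fn1*, *Pcdh7*, *Bmper*, *Gata4*, *Mesp2*, *Wnt2*, *Isl1*, *Anpep* and *Zfp516*, was above the kept cells and within the range of the *Mesp1*-high cells. In the other set, *Snai1*, *Pdgfra*, *Fgf3*, *Wnt5a*, *Lfng*, *Phlda2*, *Rasgrp3*, *Pcdh19* and *Crabp1* lay within the kept cells and below all *Mesp1*-high sums. *Snai1* was at 85.2 and 92.7 CPM, *Pdgfra* at 8.74 and 9.0 CPM and *Fgf3* at 16.8 and 12.7 CPM in the KO embryos, while *Fn1* was at 509.6 and 431 CPM. Of the 21 genes lower in *Mesp1*-high cells, both KO embryos lay above all *Mesp1*-high sums for 17 (5.42% of all genes did) and below all kept sums for 7 (4.96% did), among them *Cdh1* at 29.7 and 30.6 CPM. *Cldn7* was at 65.6 and 64.4 CPM in the KO embryos, within the kept range.

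**Figure D4:**
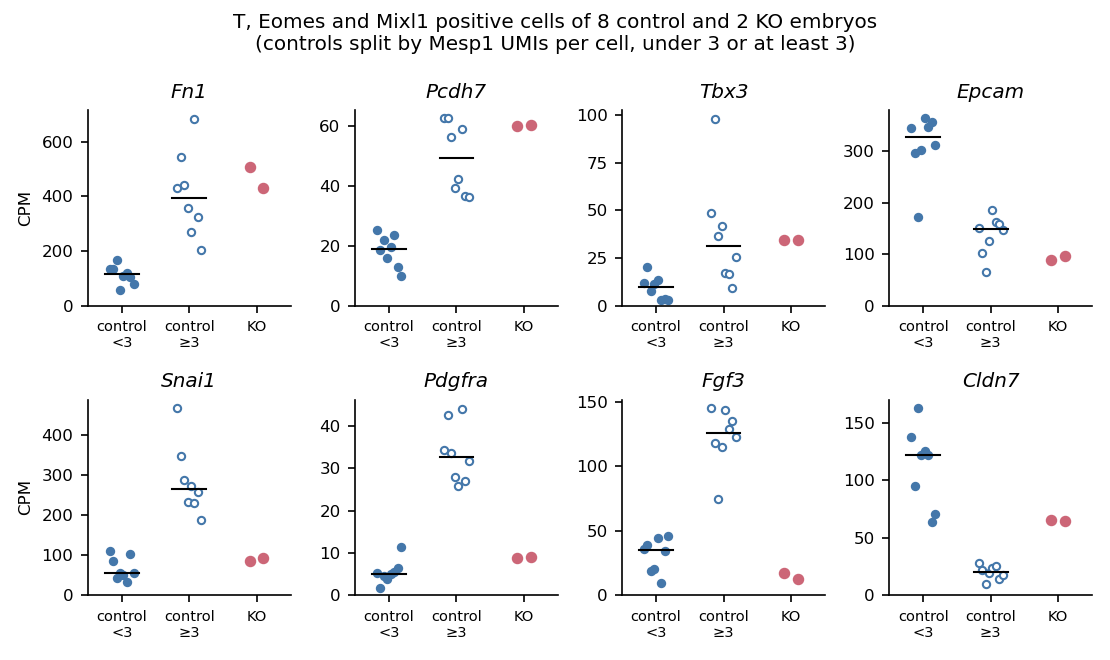
Levels of 8 genes in kept streak cells and Mesp1-high triple-positive cells of the 8 controls and in streak cells of the 2 KO embryos, in CPM. Each point is 1 embryo. For Fn1 and Pcdh7 the KO points lie in the range of the Mesp1-high cells, and for Snai1, Pdgfra and Fgf3 in the range of the kept cells.

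The comparison of KO with control streak cells asked which genes depend on genotype in cells that have entered the streak programme. With stage as a covariate, 18 of 11280 genes passed an adjusted p of 0.05 in edgeR's quasi-likelihood test (0.16%), 13 higher (0.115%) and 5 lower (0.0443%) in KO, 1429 had an unadjusted p under 0.05, and DESeq2 called 375. Without the *Mesp1* limit, 1 of 13137 genes passed (0.00761%), 1525 had an unadjusted p under 0.05 and DESeq2 called 309. All 18 genes kept their direction without the limit, 11 of them with an unadjusted p under 0.05, and for 10 the log2 fold change was at most 0.5 of its size with the limit. Both fits share all KO cells and the kept control cells, so a kept direction is not separate support. None of the 18 passed when the same KO cells were set against all triple-positive control cells. The count depended on single embryos: it was 127 without the third E6.0 control, 6 without the second and 0 without the first, 1 without the late E6.0, 8 without the E6.5, 2 without the late E6.5, 1 without the E7.0 and 0 without the early E7.5 control, and 1 without either KO embryo. It was 124 without the 3 libraries high in *Rps2-ps13*.

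*Fn1* (chr1:71585520-71653200, minus strand) was at 59.2 to 167 CPM with a median of 115 in control streak cells and at 509.6 and 431 CPM in KO streak cells, with no overlap. It rose by a log2 fold change of 2.12 (SE 0.258, edgeR adjusted p = 0.0313). Without the limit the controls were at 107 to 524 CPM, which holds both KO values, and the fold change was 0.68 (SE 0.422, unadjusted p = 0.135 in edgeR's fit across all genes). Against the 2 controls of the same experiment, the early log2 ratio was 2.16 with the limit and 0.84 without it. These controls, an E6.0 and a late E6.0 embryo with 25 and 54 streak cells, were younger than the E6.5 KO embryo. In this ratio and the same-experiment ratios below, age and genotype cannot be told apart.

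*Pcdh7*, a protocadherin, was at 9.95 to 25.3 CPM in control and 60.2 and 60.3 CPM in KO streak cells. It rose by 1.80 (edgeR adjusted p = 0.0353). Without the limit, where the controls reached 49.1 CPM and still did not overlap the KO embryos, its log2 fold change was 0.78 (edgeR adjusted p = 0.383). *Tbx3* (chr5:119670669-119684724, plus strand) was at 3.19 to 20.3 CPM in control and 34.2 and 34.5 CPM in KO streak cells, a log2 fold change of 2.47 (edgeR adjusted p = 0.0385). Without the limit the controls reached 69.2 CPM and the fold change was 1.06. The early log2 ratio of *Tbx3* against controls of the same experiment was 1.72 with the limit and 0.31 without it. *Dlc1*, a GTPase-activating protein, rose by 1.94 and *Bmper*, a secreted BMP regulator, by 2.70 (edgeR adjusted p = 0.0385 for both), with 0.44 and 0.50 when the limit was not applied.

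*Ndufa4l2*, a mitochondrial protein induced by hypoxia, was at 7.11 to 27.5 CPM in control and 52.5 and 54.5 CPM in KO streak cells. Its log2 fold change was 2.13 with the limit (edgeR adjusted p = 0.0313) and 1.66 without it, so it depended less on the limit than *Fn1* did. Against controls of the same experiment its early log2 ratio was 1.22 with the limit and 0.74 without it. *Plekha6* (2.5) and *Rasal1* (2.33), a Ras GTPase-activating protein, also rose, as did the clone *D430041D05Rik* (2.83), and without the limit their log2 fold changes were 1.66, 1.47 and 0.74. The ratio of *D430041D05Rik* against controls of the same experiment was 1.37 with the limit and -0.03 without it. The ribosomal pseudogene *Rps15a-ps8* was at 137 CPM in the E6.5 KO embryo, at 2.35 CPM in the E7.0 KO embryo and at no more than 3.87 CPM in controls, so its call rests on a single library. Without the limit its log2 fold change was 5.19. It was at 133 CPM in *Pou5f1*-only cells of that embryo too, and reads of a pseudogene can come from its parent gene.

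Among the genes that were lower, *Epcam* (chr17:87635979-87651129, plus strand) was at 172 to 365 CPM with a median of 328 in control streak cells and at 88.9 and 95.9 CPM in KO streak cells. It fell by 1.74 on the log2 scale (edgeR adjusted p = 0.0313). Without the limit the controls were at 109 to 274 CPM, still above both KO embryos, and the log2 fold change was -1.18 (unadjusted p = 0.000372 in edgeR's fit across all genes). The same-experiment ratios were -1.41 and -0.77 with and without the limit. In *Pou5f1*-only cells *Epcam* was at 268 to 753 CPM in controls and 234 and 201 CPM in KO embryos, with a log2 fold change of -1.07 that did not pass (edgeR adjusted p = 0.231), so the lower level was not seen in streak cells alone.

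*Tpd52*, a vesicle trafficking gene, was at 40.5 to 53.1 CPM in controls and 25.5 and 23.2 CPM in KO embryos, and fell by 0.97. *Qprt*, an enzyme of NAD synthesis, fell by 1.15, *Acot1*, an acyl-CoA thioesterase, by 1.31 and *Tmem121* by 2.13 (edgeR adjusted p between 0.0385 and 0.0453 for these 4 genes). Without the limit *Acot1* and *Tmem121* had log2 fold changes of -1.10 and -2.01, close to those with it, while *Tpd52* and *Qprt* had -0.36 and -0.60. Against the early controls of the same experiment the log2 ratios with and without the limit were -0.82 and -0.54 for *Acot1*, -1.05 and -0.77 for *Tmem121*, -0.98 and -0.18 for *Tpd52*, and -0.78 and 0.03 for *Qprt*.

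The gene called without the limit was *Fgf3* (chr7:144838083-144844436, plus strand). All triple-positive control cells held 51.4 to 124 CPM with a median of 89.9, against 16.8 and 12.7 CPM in the KO embryos, and *Fgf3* fell by 2.52 on the log2 scale (SE 0.308, edgeR adjusted p = 0.0478). With the limit the controls were at 9.25 to 46.2 CPM and the log2 fold change was -1.02 (edgeR adjusted p = 0.398). *Snai1* and *Pdgfra* changed sign with the limit. *Snai1* had a log2 fold change of 0.46 with it and -1.03 without it, and *Pdgfra* one of 0.71 with it and -1.32 without it, and none of these 4 values passed in edgeR (adjusted p between 0.185 and 0.646).

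The list of posterior streak and nascent mesoderm genes showed the same dependence. With the limit 1 of 21 members was called higher (*Tbx3*), 8 were higher and 0 lower at an unadjusted p under 0.05 (4.32% and 8.35% of all genes were), and the median log2 fold change was 0.71. Without it 0 were called, 2 were higher and 8 lower at that p (4.2% and 7.41% of all genes were), and the median was -0.87. The median over all genes was -0.03 in both cases. Of 17 tested primitive streak genes 0 were called either way (median -0.25 with the limit and -0.20 without), and *Sp5*, at 147 to 355 CPM in controls and below all of them in the KO embryos, had log2 fold changes of -1.13 and -1.15 (edgeR adjusted p = 0.135 and 0.146), and early ratios of -0.51 and -0.64 against controls of the same experiment. *Fgf8* had log2 fold changes of 0.70 and 0.82 (edgeR adjusted p = 0.634 and 0.54). For *Nkd1*, a Wnt feedback inhibitor, the controls were at 13.2 to 91.2 CPM and the KO embryos at 7.35 and 6.03 CPM (log2 fold change -2.64, edgeR adjusted p = 0.113, and -2.87 without the limit, adjusted p = 0.146). *Nkd1* was chosen after its values were seen.

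Of 18 mesenchymal genes 1 was called higher (*Fn1*) and of 13 epithelial genes 1 lower (*Epcam*) with the limit, against 0.115% of all genes called higher and 0.0443% called lower, and 0 in either list without it. Both list medians changed sign with the limit. The mesenchymal median log2 fold change was 0.14 with it and -0.14 without it, and the epithelial one -0.30 with it and 0.34 without it. No pluripotency (20 tested), Wnt (23), Nodal and TGF-beta (16), BMP (18) or anterior streak gene (16) was called with the limit, nor any of 18 FGF genes. *Bmper*, described above, and *Tgfb1*, a TGF-beta ligand, passed but are not members of these lists. *Tgfb1* was at 7.51 to 22.0 CPM in control and 45.6 and 39.4 CPM in KO streak cells (log2 fold change 1.64, edgeR adjusted p = 0.0385), and its log2 fold change was 0.69 without the limit. *Rac1* had a log2 fold change of -2.07 that did not pass (edgeR adjusted p = 0.323) and an early ratio of 0.08 against controls of the same experiment. With the experiment as a covariate, 0 genes were called in edgeR with or without the limit, and 750 and 638 had an unadjusted p under 0.05.

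Whether genotype acted differently in streak cells and in *Pou5f1*-only cells was tested as an interaction within embryos. In *Pou5f1*-only cells alone, 0 of 12421 genes differed between KO and control in edgeR (0.0%), 1120 had an unadjusted p under 0.05 and DESeq2 called 244, and without the third E6.0 control 100 passed in edgeR. For the difference between the classes, 22 of 12495 genes passed (0.176%), 4 with a more positive (0.032%) and 18 with a more negative (0.144%) KO effect in streak cells. The fits with and without the *Mesp1* limit share cells, so a kept sign is not separate support. All 22 kept their sign without the limit and 18 had an unadjusted p under 0.05, but none of them passed then (smallest edgeR adjusted p = 0.0907). The gene that did was *Hoxb2*, which is not among the 22 (log2 difference -5.27, SE 0.641, edgeR adjusted p = 0.0187, 1 of 13221 genes or 0.00756%, against edgeR adjusted p = 0.217 with the limit). The count of 22 became 0 without the E6.5 KO embryo and 6 without the E7.0 KO embryo. It was 12 without the first E6.0 control, 3 without the second and 7 without the third, 3 without the late E6.0, 7 without the E6.5, 41 without the late E6.5 and 59 without the early E7.5 control. With the experiment as a covariate 4 genes passed, 0 with a more positive and 4 with a more negative KO effect in streak cells.

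A group of 5 of the 22 genes acts in sterol synthesis or its control. *Sc4mol*, a methylsterol oxidase, was at 7.94 to 15.8 CPM in control and 7.89 and 6.65 CPM in KO streak cells, and at 14.7 to 26.2 CPM in control and 57.4 and 39.0 CPM in KO *Pou5f1*-only cells. The difference of the KO effects was -2.27 on the log2 scale (SE 0.248, edgeR adjusted p = 0.00209). *Cyp51*, a sterol demethylase, was at 12.1 to 24.3 CPM and 15.5 and 16.1 CPM in streak cells, and at 15.7 to 30.4 CPM and 39.8 and 35.6 CPM in *Pou5f1*-only cells, a difference of -1.23. *Insig1*, which retains the sterol-sensing complex, *Fdps* and *Fdft1*, enzymes of the same pathway, had differences of -1.81, -1.29 and -1.15 (edgeR adjusted p between 0.0366 and 0.043). Without the limit the differences were -1.58 for *Sc4mol*, -1.18 for *Cyp51*, -1.63 for *Insig1*, -1.06 for *Fdps* and -0.89 for *Fdft1*. In *Pou5f1*-only cells alone the KO log2 fold changes were 1.46 for *Sc4mol*, 0.93 for *Cyp51*, 0.94 for *Insig1*, 0.88 for *Fdps* and 0.74 for *Fdft1*. In streak cells alone they were -0.75, -0.28, -0.85, -0.38 and -0.40 in the same order. None of these values passed in edgeR. That these genes form a group was seen after their values were known, and no list for the pathway had been set.

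*Cdx2* and *Nkx1-2*, genes of the posterior epiblast, had differences of -3.42 and -4.39 (edgeR adjusted p = 0.0409 and 0.0428), and both were highest in streak cells of the E7.0 and early E7.5 controls. *Nkx1-2* was at 97.8 and 299 CPM there and at 1.16 and 0.818 CPM in the KO embryos. *Sox7*, a factor of endothelium and parietal endoderm, had a difference of -5.28 (edgeR adjusted p = 0.0409), at 0.309 and 0 CPM in KO streak cells and 4.11 and 1.46 CPM in KO *Pou5f1*-only cells. These KO levels are low. Its KO log2 fold change was -2.99 in streak cells alone and 1.24 in *Pou5f1*-only cells alone, and neither passed in edgeR. The 11 parietal endoderm markers summed to 1441 and 560 CPM in *Pou5f1*-only cells of the KO embryos and to 283 to 978 CPM in those of the controls, and their part in this result was not tested. The differences of *Cdx2*, *Nkx1-2* and *Sox7* were -3.09, -3.70 and -4.15 without the limit. The positive differences were those of *Sash1* (1.38), *Dhrs7* (1.26), *Pbx3* (1.25) and *Slc6a6* (1.24). *Dhrs7*, an oxidoreductase, was at 33.7 and 25.5 CPM in KO and 7.94 to 17.4 CPM in control streak cells, and its difference was 1.28 without the limit, where those of *Sash1*, *Pbx3* and *Slc6a6* were 0.86, 0.92 and 0.60.

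The share of an embryo's cells that were streak cells was 10.3%, 12.5%, 9.80%, 10.2% and 2.93% in the early controls and 24.3% (95% Clopper-Pearson interval 22.3% to 26.5%) in the E6.5 KO embryo. In the middle controls it was 6.48%, 5.02% and 1.52%, and in the E7.0 KO embryo 19.9% (18% to 21.9%). Both KO values lay above every control of their stage, by 15.4 percentage points on average (9.58 with every cell thinned to 10000 UMIs), but the rule counts a cell only if it holds fewer than 3 *Mesp1* UMIs, which was true of every triple-positive KO cell. Without the limit the shares were 23.8%, 29.9%, 24.3%, 24.9% and 13.8% in the early controls and 19.9%, 10.8% and 1.91% in the middle controls. The early KO embryo then lay within its controls and the middle one beside the late E6.5 control. The difference was 5.0 points (exact permutation of genotype within stages, 24 arrangements, two-sided p = 0.5, where 0.0417 is the smallest p this design allows). Without the limit the E6.5 control was at 13.8%, against 24.3% in the E6.5 KO embryo. The E7.0 control was at 10.8%, against 19.9% in the E7.0 KO embryo. These controls of the same embryonic day were of another experiment than the KO embryos. The intervals cover counting error only.

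**Figure D5:**
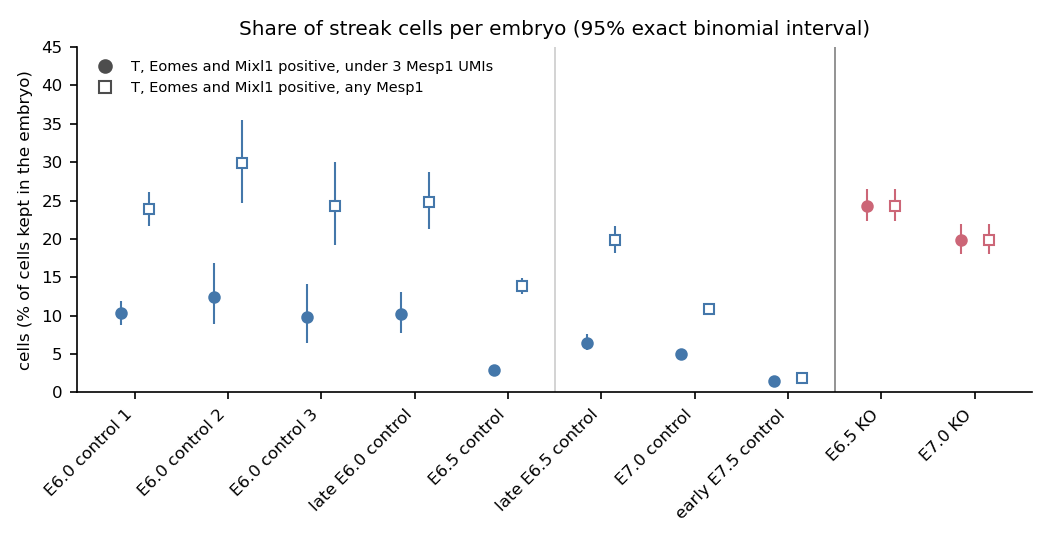
Percentage of an embryo's kept cells that were streak cells (with the Mesp1 limit) and triple-positive cells (without it), by embryo, with 95% Clopper-Pearson intervals that cover counting error only. The 2 KO embryos have the same value in both settings, 24.3% and 19.9%, while the 5 early controls move from 9.14% to 23.3% on average when the limit is not applied.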

How the data were processed

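UMI counts were deposited by the authors as 1 matrix per embryo, not normalized between libraries. According to the submitters' notes and methods, they were made with Cell Ranger 3.0.2 on mm10, to which the reporter sequences eGFP and Ai14 had been added. Group and age came from the labels, and the experiment from the library names. Here a barcode was kept if under 10% of its UMIs were mitochondrial, if it had under 50000 UMIs and if it had 200 to 7000 genes. The study's methods also give 6300 as the upper limit, which was run as an alternative. Doublets were scored against simulated pairs within each library, at 0.8% per 1000 barcodes, and kept. They made up 36 of the streak cells, and without them the early E7.5 control fell from 89 to 74 streak cells. Libraries held 13058356 to 172058203 UMIs. The number of cells, 25 to 412 per embryo, limits precision.

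Counts of the selected cells were summed per embryo, which is the replicate. edgeR 4.0.16 (R 4.3.3) was used for filtering (filterByExpr), TMM scaling and the quasi-likelihood test, with stage as covariate and with the embryo as a block for the difference between cell classes. Adjusted p-values are Benjamini-Hochberg, with a threshold of 0.05. Since each stage has 1 KO embryo, the spread was taken from all embryos of the fit. DESeq2 1.42.0 was an alternative. Shares were compared by an exact permutation within stages and carry 95% Clopper-Pearson intervals (scipy 1.17.1). Comparisons of cell classes within embryos are log2 ratios of CPM after adding 1 CPM, over genes with at least 10 CPM on average in the higher class, with no test. Promoter windows come from RefSeq on GRCm38.p6. Promoters of *Mixl1* and *Fgf8* were not analysed here. The fits were tested on simulated data with known changes.

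The cell rule, the gene lists and the tests were chosen with earlier results of these data known. Genes named from the tested comparisons are up to 10 in each direction (5 for the comparison of stages and of classes) with the largest change among those that passed and, for genotype, moved the same way in both KO embryos, or otherwise the 5 with the smallest p. A gene that this rule names in the comparison of stages is not reported here. From lists, the highest members and those called are named. Genes named beside these rules were chosen after their values were seen. Alternatives changed the *Mesp1* limit, the number of UMIs asked of each factor, the gene limit, doublets, cells with extra-embryonic markers, depth (thinning to 10000 UMIs), the filter, the tool, the experiment covariate and the embryos used. Leaving out the 3 libraries high in *Rps2-ps13*, and combining the absence of a *Mesp1* limit with other alternatives, were added after seeing the data.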

Additional observations from a re-analysis of the deposited data

Results flagged for a closer look

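Among the 5 early controls, 33 values were checked for a sample far from the others by Dixon's criterion, which chance alone meets in about 1 of 20 groups, and 7 met it. The share of streak cells was 2.93% in the E6.5 control, against at least 9.80% in the other 4. In streak cells of the same embryo *T* was at 447 CPM (at most 229 in the others), *Sash1* at 25.8 CPM (at most 10.5), *Nkx1-2* at 17.9 CPM (at most 3.32) and *Cdx2* at 94.8 CPM (at most 25.6). This embryo is the oldest of the early controls and the only one of its experiment among them. *Rps15a-ps8* was at 3.87 CPM in the late E6.0 control (at most 1.10 in the others), and *Sc4mol* was at 7.94 CPM in the second E6.0 control, where the others reached 15.8.

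The effect of genotype differed between streak cells and *Pou5f1*-only cells by edgeR's interaction test for 22 genes. The log2 differences were -5.28 for *Sox7*, -4.39 for *Nkx1-2*, -3.42 for *Cdx2*, -2.27 for *Sc4mol*, -1.81 for *Insig1*, -1.60 for *Rnd2*, -1.40 for *Ramp2*, -1.33 for *Tubb3*, -1.29 for *Fdps*, -1.23 for *Cyp51* and -1.15 for *Fdft1*. Smaller ones were -0.99 for *Cited2*, -0.96 for *Tuba1a*, -0.85 for *Oat*, -0.81 for *Bex1*, -0.76 for *Fhl1*, -0.73 for *Arl4c* and -0.69 for *Crip2*. Those above 0 were 1.24 for *Slc6a6*, 1.25 for *Pbx3*, 1.26 for *Dhrs7* and 1.38 for *Sash1*. Adjusted p-values were 0.00209 for *Sc4mol* and *Tuba1a* and between 0.0279 and 0.0452 for the other 20 genes. Without the *Mesp1* limit none of the 22 passed, with *Arl4c* at -0.13, *Crip2* at -0.12 and *Slc6a6* at 0.60.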

How the results depend on the processing

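With 2 KO embryos, 1 at each stage, genotype calls rest on few samples, and the middle KO embryo has no control of its own stage in its experiment. The age-matched controls, those of the same embryonic day as a KO embryo, are all of another experiment than the KO embryos. In the fits with these controls only, genotype and experiment cannot be told apart. Streak cells of the third E6.0 control (25 cells) and the second (36) are the thinnest sums. No paired analysis was possible because a replicate number does not tie a KO embryo to a control embryo and each stage has 1 KO embryo. The experiment was used as a covariate in its place.

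The 18 genes called between KO and control streak cells became 1 without the *Mesp1* limit, 8 with at most 6300 genes per cell, 36 with thinned cells, 375 with DESeq2, 44 with no filter, 124 without the 3 *Rps2-ps13* libraries, 0 with the experiment as a covariate and 2389 with age-matched controls only (4 embryos), and 0 to 127 with single embryos left out. The 1 gene without the limit became 4 with thinned cells, 65 without the 3 libraries, 0 with the experiment, 309 with DESeq2 and 0 to 98 with single embryos left out. For *Pou5f1*-only cells the 0 became 1 (thinned), 244 (DESeq2), 6 (no filter), 58 (without the 3 libraries), 1 (experiment), 2134 (age-matched) and 0 to 100 (single embryos left out).

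The 22 genes of the difference between classes became 1 without the limit, 34 with cells of 0 *Mesp1* UMIs, 34 with extra-embryonic marker cells left out, 13 thinned, 73 with DESeq2, 369 with no filter, 4 with the experiment, 650 with age-matched controls and 0 to 59 with single embryos left out. Without the limit the 1 gene became 0 thinned, 0 without the 3 libraries, 11 with the experiment, 35 with DESeq2 and 0 to 16 with single embryos left out. Between stages the 0 became 55 with DESeq2, 3 with no filter and 0 to 498 with single embryos left out. The 36 genes higher in streak than *Pou5f1*-only cells became 47 without the limit, 32 with at least 2 UMIs of each factor and 26 thinned. They became 39 with at least 3 *Pou5f1* UMIs and 36 to 48 with single embryos left out. The 8 lower ones became 14 without the limit, 18 with at least 2 UMIs of each factor, 15 thinned, 14 with at least 3 *Pou5f1* UMIs and 8 to 28 with single embryos left out. The difference in shares of 15.4 points became 9.58 thinned, 20.7 with *Pou5f1*-positive and streak cells as the denominator, 5.0 without the limit, 2.62 without it and thinned, 16.2 without the 3 libraries and 14.6 to 15.9 with single embryos left out. The cause of these moves was not tested, and none of the 384 and 482 values that the 18 and 22 called genes had when 1 choice was changed was reversed in direction (some genes had no value under some choices). These fits share embryos and cells with the main ones, so the kept directions are not separate support. With the limit dropped and a second choice changed, *Nin*, *Tbx3* and *Robo1* reversed without the E7.0 KO embryo, *Robo1* also without the early E7.5 control, and for the difference between classes *Arl4c* without the E7.0 KO embryo and *Crip2* with thinned cells.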
